A study of Mus musculus with 31 samples.

Results

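The neuronal marker genes described here are 31 mouse genes whose transcripts mark neurons, measured by RNA-seq in astrocytes sorted from the brain. They were chosen by gene symbol and not by any value in these libraries. Of the 31 genes, 30 had transcripts among the 55401 genes of the files, and Meg3os had none. 20 of the 30 passed the filter on low counts and were tested. The other 10 (Syt1, Nefm, Rbfox3, Slc32a1, Slc17a7, Slc17a6, Grin1, Grin2a, Nrgn and Kcnc1) were too low in most libraries to be tested and are described by their levels.

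The 12 libraries came from female C57Bl/6 mice of 10 weeks kept under ordinary pathogen-free conditions, with 3 libraries in each of 4 groups, and all mice had surgery and an injection into the lateral ventricles. The 2X cytokine group received IL-1β at 100 ng/mL with TNF-α at 50 ng/mL and was injected again on day 7, and the 2X PBS group received the carrier buffer on both occasions. The 1X cytokine and 1X PBS groups were injected once, on day 7, with cytokine or with PBS. Cells were sorted 18 to 24 hours after the last injection. A short label names TNF-α alone where the protocol names both cytokines. The sources used here do not give the sort markers, and the labels do not say whether a library is a single animal. Totals ran from 1878418 to 5521679 estimated counts, so that 3 counts correspond to between 0.528 and 1.65 CPM. CPM are counts divided by the scaled total of their library.

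Neurons signal at synapses, where vesicles loaded with transmitter fuse with the membrane through a complex built by Snap25, Stx1a and Vamp2, under the calcium sensor Syt1. Glutamate is loaded by Slc17a7 and Slc17a6 and GABA by Slc32a1, after synthesis by Gad1 and Gad2, and the receiving side carries NMDA receptors with Grin1 and Grin2 subunits and the kinase Camk2. Astrocytes wrap synapses and clear their transmitter, and a preparation of sorted astrocytes is often checked for neuronal transcripts. Some of these genes are not restricted to neurons: Vamp2, Map2, Tubb3 and Uchl1 are known to be transcribed at lower levels in other cells. In bulk RNA, fewer cells of a type and less RNA per cell cannot be told apart.

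Astrocyte transcripts were abundant in all groups, and neuronal transcripts were a minor part. TPM values are scaled by transcript length and to the same sum in each library, so they allow genes to be set against each other. The 30 genes summed to 389, 414 and 401 TPM in 2X cytokine and 457, 395 and 406 TPM in 2X PBS. In 1X cytokine they summed to 444, 420 and 373 TPM, and in 1X PBS to 378, 404 and 272 TPM. The groups overlapped in every comparison, and the low library, 1X PBS replicate 3, was also the one in which 7 erythrocyte markers took 178000 TPM. In comparison, 14 astrocyte markers, all detected, summed to between 11900 and 39400 TPM over the 12 libraries. Other lists reached or passed that level in some libraries: 9 choroid plexus markers summed to between 6280 and 44900 TPM and the erythrocyte markers to between 1790 and 178000 TPM.

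**Figure D1:**
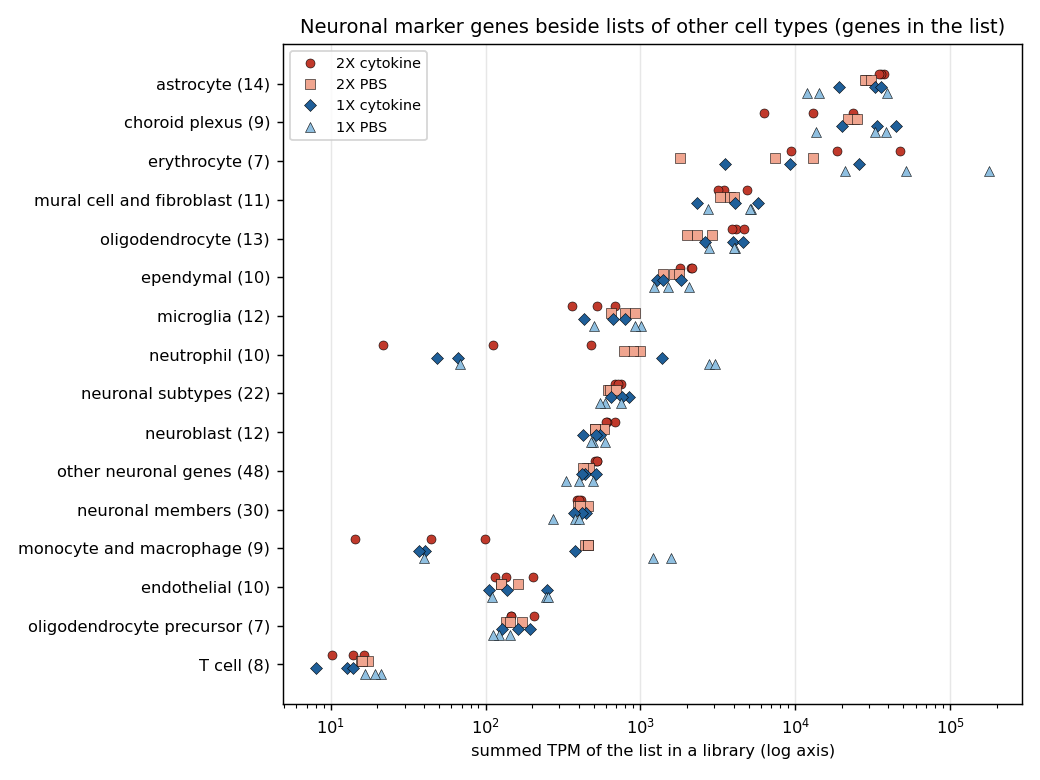
Summed TPM of the neuronal marker genes and of lists of other cell types, on a log axis, with 1 point per library and the number of genes in brackets. The neuronal marker genes lie between 272 and 457 TPM in every library, while the astrocyte markers lie between 11900 and 39400 TPM and the neutrophil markers range from 21.9 to 3030 TPM.

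Only 4 genes made most of this sum. Tubb3, a neuronal β-tubulin, averaged 98.3 TPM over the 12 libraries, with a range of 65.5 to 138 TPM. Vamp2, the vesicle protein of the fusion complex, averaged 82.4 TPM. Uchl1, a ubiquitin hydrolase abundant in neurons, averaged 75.3 TPM, and Map2, which binds dendritic microtubules, averaged 43.8 TPM. Together these 4 made between 71.0% and 79.7% of the summed TPM of a library. The ranges of Tubb3, Vamp2 and Uchl1 overlapped, so their order is not fixed by these libraries.

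The next genes were several times lower. Thy1, a surface glycoprotein of axons, averaged 14.8 TPM, Stmn2, a microtubule regulator of growing axons, 14.2 TPM, and Grin2b, an NMDA receptor subunit, 10.9 TPM. Celf4, an RNA-binding protein, averaged 8.91 TPM, Syn2, a synapsin of vesicle membranes, 8.08 TPM, and Gad1 6.11 TPM. Snap25, Stx1a, Syn1, Camk2a, Dcx, Gad2, Syp, Camk2b, Scn2a, Grin1 and Nefl lay between 4.93 and 1.07 TPM in that order. The remaining 9 genes had a mean below 1 TPM. Thus 7 of the 30 genes averaged at least 10 TPM.

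Several genes used as defining neuronal markers were at or near 0. Slc17a7, the vesicular glutamate transporter of cortical neurons, had 0 counts in 12 of 12 libraries, which allows up to 3 counts in each. Slc17a6, the second glutamate transporter, had 0 counts in 9 libraries, and Slc32a1, the GABA transporter of vesicles, in 7. None of these 3 transporters exceeded 3 counts in any library. Nrgn, a calmodulin-binding protein of dendrites, had 0 counts in 6 libraries, and Rbfox3, which encodes the nuclear antigen NeuN, in 2. Of the 30 genes, 18 had more than 3 counts in every library, and between 20 and 26 did so in a given library.

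**Figure D2:**
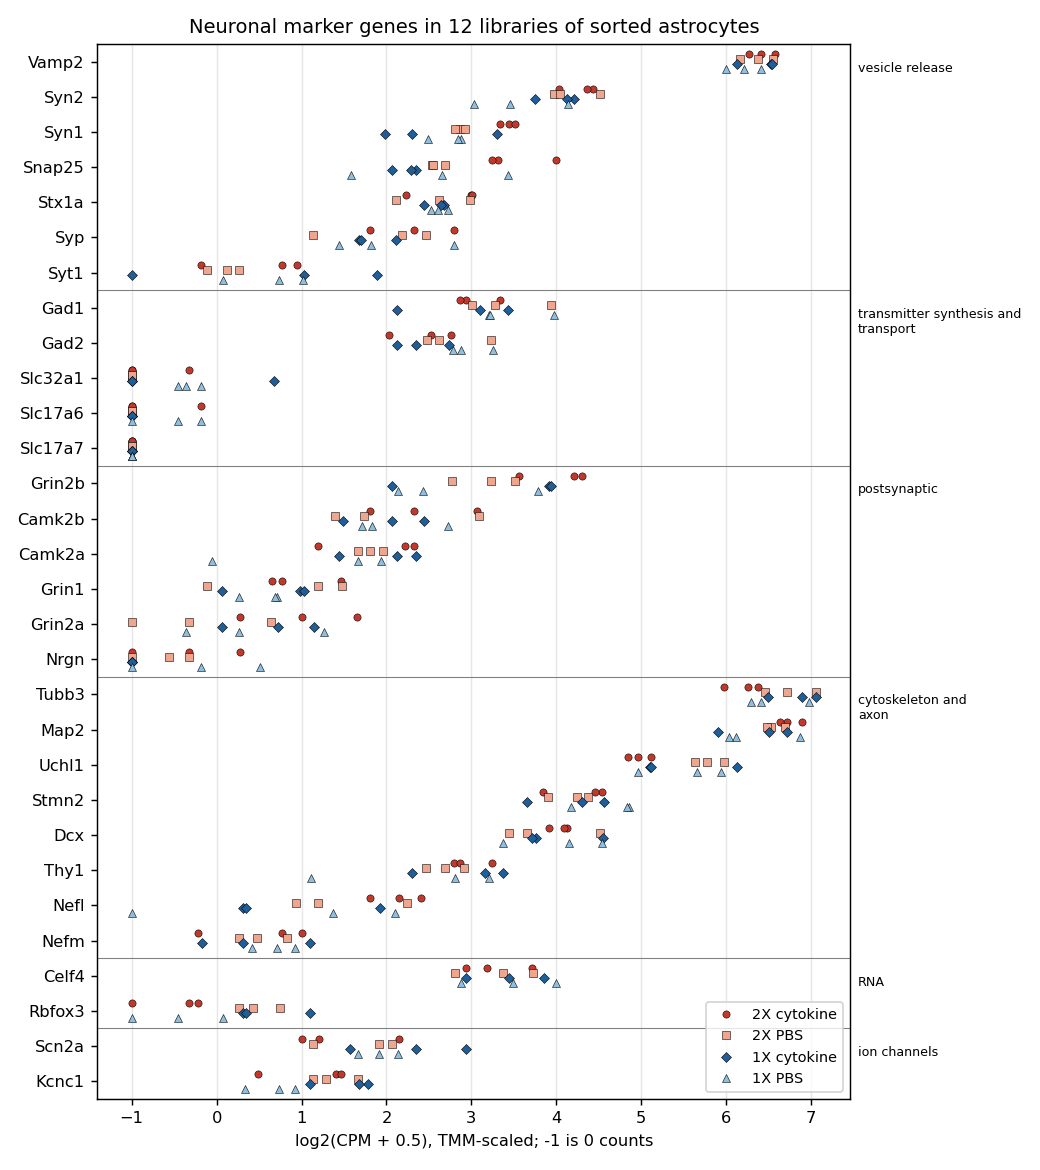
Level of each of the 30 genes, ordered by role and then by mean, as log2(CPM + 0.5) with 1 point per library, where CPM use TMM-scaled totals and -1 stands for 0 counts. Vamp2, Tubb3, Map2 and Uchl1 lie far to the right, and Slc17a7 sits at -1 in all 12 libraries.

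2X cytokine libraries were set against 2X PBS libraries to see what repeated cytokine exposure changes beyond repeated injection of buffer. The neuronal marker genes did not move together in it. Differences are given in CPM, which takes out the depth of each library but not the length of the gene. In the edgeR fit of all 12 libraries 0 of 20 genes passed an adjusted p of 0.05, where 0.0345% of all 14490 genes did. 3 of the 20 had an unadjusted p under 0.05, which is 15.0%, against 9.68% of all genes, and DESeq2 called 0. The log2 fold change was above 0 for 14 genes and below 0 for 6. Its median was 0.15, against -0.0034 over all genes.

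Of the genes for vesicle release, 6 were tested, all 6 had a log2 fold change above 0 and 0 were called, with a median of 0.24. Snap25, a component of the fusion complex, had 15.4, 9.42 and 9.0 CPM in 2X cytokine and 5.93, 5.28 and 5.33 CPM in 2X PBS. Every 2X cytokine library lay above every 2X PBS library. The log2 fold change was 1.03 with a standard error of 0.41 (edgeR adjusted p = 0.47). Syn1, a synapsin that tethers vesicles to actin, had 10.4, 10.9 and 9.6 CPM in 2X cytokine and 6.77, 6.51 and 7.11 CPM in 2X PBS, again without overlap. Its log2 fold change was 0.60 with a standard error of 0.31 (edgeR adjusted p = 0.595). Vamp2 had 95.0, 76.5 and 84.3 CPM in 2X cytokine and 71.1, 82.2 and 93.6 CPM in 2X PBS, with overlapping groups and a log2 fold change of 0.05 (standard error 0.16). So the most abundant gene of the fusion complex differed by less than the spread between libraries, while Snap25 was separated and not called. Syn2, Stx1a and Syp, which encodes a major vesicle membrane protein, also overlapped between the groups. Syt1 was not tested and stayed between 0 and 3.2 CPM over the 12 libraries.

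The genes of transmitter synthesis had log2 fold changes below 0. Gad1 had 7.14, 6.78 and 9.6 CPM in 2X cytokine and 14.8, 7.57 and 9.18 CPM in 2X PBS, and Gad2 had 3.57, 5.27 and 6.3 CPM in 2X cytokine and 5.08, 5.63 and 8.88 CPM in 2X PBS. Both enzymes make GABA from glutamate, and the groups overlapped for both. The log2 fold changes were -0.38 and -0.36 with standard errors of 0.38 and 0.33. Summed as TPM, the 5 genes of this role had 4.92, 7.46 and 7.21 TPM in 2X cytokine and 17.0, 11.3 and 12.1 TPM in 2X PBS, without overlap. This sum was nearly all Gad1 and Gad2, since the vesicular transporters never exceeded 3 counts. Each of Gad1 and Gad2 overlapped between the groups in TPM as well. The reads of Gad1 were also divided differently among its transcripts. Gad1-206, annotated as a processed transcript without a coding sequence, held 0, 5 and 0 counts in 2X cytokine and 19, 26 and 25 counts in 2X PBS. The protein-coding Gad1-201 went the other way, with 16, 11 and 27 counts in 2X cytokine and 0, 15 and 0 counts in 2X PBS. The division also varied within a group. In 1X cytokine Gad1-201 held 36, 0 and 0 counts and Gad1-206 held 0, 18 and 7 counts. In 1X PBS Gad1-201 held 20, 37 and 28 counts and Gad1-206 held 1, 6 and 0 counts. TPM depend on this division, and its part in the separated sum was not tested.

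Of the postsynaptic genes, 3 were tested, and all had log2 fold changes above 0 with 0 called. Grin2b had 19.3, 11.3 and 18.0 CPM in 2X cytokine and 6.35, 10.9 and 8.88 CPM in 2X PBS. The groups did not overlap, though the lowest 2X cytokine library was close to the highest 2X PBS library. Its log2 fold change was 0.86 with a standard error of 0.52 (edgeR adjusted p = 0.655). On the TPM scale the same groups overlapped, with 15.5, 22.7 and 4.6 TPM in 2X cytokine and 6.09, 13.1 and 4.75 TPM in 2X PBS. Reads of Grin2b were divided among transcripts of 24060 and 7484 bases and shorter ones, among them Grin2b-207 of 241 bases. Camk2a and Camk2b, subunits of the calcium-activated kinase of synapses, overlapped between the groups. Grin1 stayed between 0.423 and 2.29 CPM over the 12 libraries and was not tested.

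Of the cytoskeletal and axonal genes 7 were tested, and 5 had a log2 fold change above 0 and 2 below. Tubb3 had 62.5, 82.5 and 75.9 CPM in 2X cytokine and 133, 87.1 and 105 CPM in 2X PBS. The highest 2X cytokine library was below the lowest 2X PBS library by a small margin. The log2 fold change was -0.55 with a standard error of 0.22 (edgeR adjusted p = 0.477). Map2 overlapped, with 105, 99.1 and 118 CPM in 2X cytokine and 103, 92.1 and 88.8 CPM in 2X PBS. On the TPM scale it did not overlap, with 68.8, 55.7 and 65.7 TPM in 2X cytokine and 51.2, 36.7 and 35.1 TPM in 2X PBS, and limma-trend on TPM did not call it. Stmn2, Dcx, which is a microtubule protein of migrating young neurons, Thy1 and Nefl, the light neurofilament chain, overlapped as well. Nefl ran from 0 to 4.8 CPM over the 12 libraries, and its exons share 1108 bases with Nefm on the opposite strand, where reads cannot be told apart because the library method does not mark strand. Scn2a, a voltage-gated sodium channel, was tested and overlapped, and Kcnc1, a potassium channel of fast-spiking neurons, was not tested and lay between 0.761 and 2.95 CPM.

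Uchl1 gave the clearest difference between these groups. It had 30.7, 34.3 and 28.2 CPM in 2X cytokine and 62.6, 54.2 and 49.2 CPM in 2X PBS, and the groups were well apart. In the fit of 12 libraries the log2 fold change was -0.83 ± 0.29 (standard error; edgeR adjusted p = 0.434). In the edgeR fit of these 6 libraries alone Uchl1 fell, by 0.82 ± 0.13 on the log2 scale (standard error) at an adjusted p of 0.00237. It was the only one of 19 genes called in that fit, which is 1 of 19 against 7.74% of all 13765 genes tested. In that fit the biological coefficient of variation was 0.114, against 0.237 in the fit of 12 libraries. When each of the 6 libraries was left out of that fit in turn, the log2 fold change lay between -0.90 and -0.74 and the adjusted p between 0.00458 and 0.0151. Uchl1 was likewise the 1 gene called over 12 libraries with voom quality weights, where 3.13% of all genes were, and with no filter beyond 1 count, where 1.37% were.

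The other separated genes missed the threshold in the fit of 6 libraries. The adjusted p was 0.0514 for Snap25, 0.0583 for Tubb3, 0.0744 for Grin2b and 0.173 for Syn1. With 1 library left out of that fit, Grin2b passed without 2X cytokine replicate 2 (1.03 on the log2 scale), Snap25 without 2X cytokine replicate 3 (1.19) and Tubb3 without 2X PBS replicate 2 (-0.68). In each case the library left out was the one of its group nearest to the other group. Leaving it out was bound to widen the gap, so these passes are a description and add no support. Over all 20 genes, 3 (15.0%) lay higher in every 2X cytokine library than in any 2X PBS library, where 11.2% of all genes did. 2 (10.0%), Tubb3 and Uchl1, lay lower in every 2X cytokine library, where 14.1% of all genes did. Both shares are near those of all genes.

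**Figure D3:**
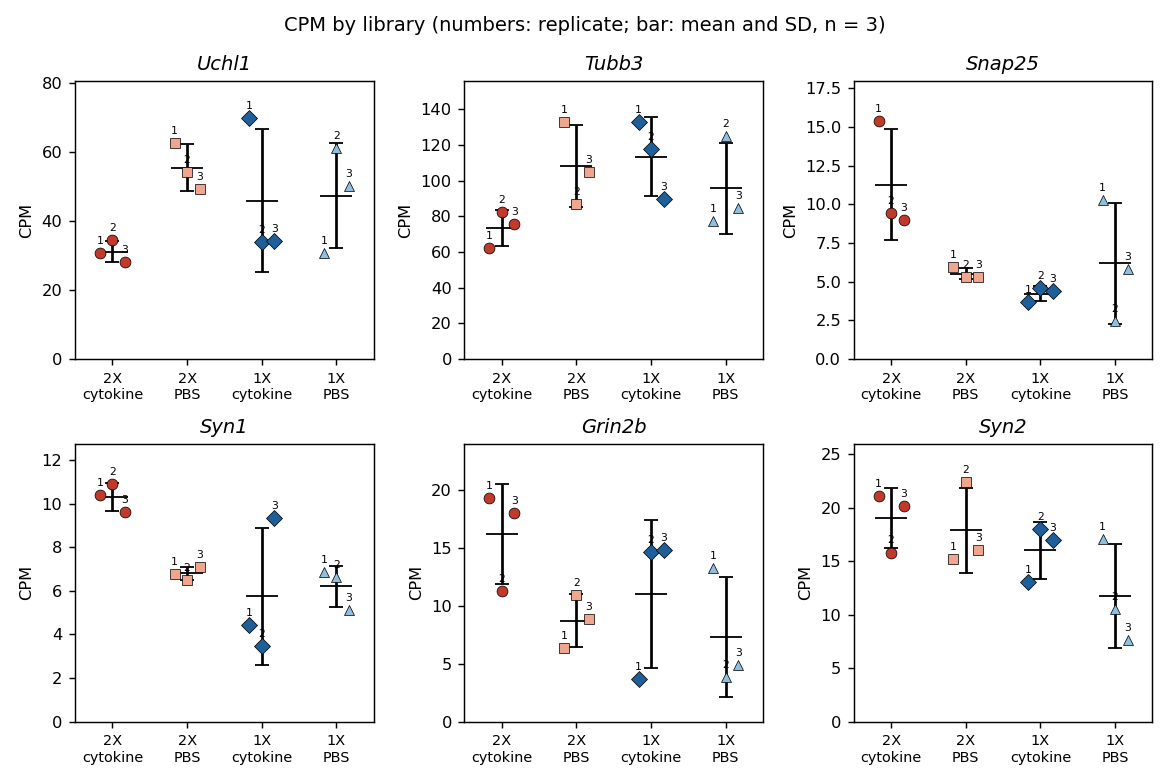
CPM of Uchl1, Tubb3, Snap25, Syn1, Grin2b and Syn2 in each library, with the replicate number above each point and bars at the mean and SD of 3 libraries. Uchl1 lies between 28.2 and 34.3 CPM in 2X cytokine, below the 49.2 to 62.6 CPM of 2X PBS. In the 1X groups replicate 1 lies apart from replicates 2 and 3 for Uchl1 and Grin2b, and less clearly for Syn2.

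The same libraries also differed in markers of other cell types, whose part in the results on Uchl1, Snap25, Grin2b, Syn1 and Tubb3 was not tested. 13 oligodendrocyte markers summed to between 3880 and 4680 TPM in 2X cytokine and between 1990 and 2910 TPM in 2X PBS, and 9 of the 13 rose in the fit of 6 libraries, where 334 of all 13765 genes rose and 731 fell. 9 monocyte and macrophage markers summed to between 14.3 and 98.8 TPM in 2X cytokine and between 440 and 460 TPM in 2X PBS. 10 neutrophil markers summed to between 21.9 and 477 TPM in 2X cytokine and between 782 and 1000 TPM in 2X PBS. That sum was mostly S100a9 and S100a8, which averaged 429 and 420 TPM over the 12 libraries. Of the 6 neutrophil markers tested in the fit of 12 libraries, 3 had a log2 fold change above 0 and 3 below. Astrocyte markers summed to between 35000 and 37600 TPM in 2X cytokine and between 28100 and 30700 TPM in 2X PBS. Of the 14 astrocyte markers 4 rose in the fit of 6 libraries, Apoe and Aldoc among them, and Gfap, the intermediate filament of reactive astrocytes, fell by 3.09 ± 0.12 on the log2 scale (standard error; edgeR adjusted p = 2.77e-08). In the same fit 4 of 12 microglia markers and 4 of 11 mural cell and fibroblast markers fell. None of the oligodendrocyte, monocyte and macrophage, neutrophil or astrocyte markers was at 0 in every library. The sum of the neuronal marker genes described here did not separate these groups, unlike the sums of those 4 lists and of the ependymal markers. This overlap was not particular to the neuronal marker genes. The sums of oligodendrocyte precursor, microglia, T cell, endothelial, mural cell and fibroblast, choroid plexus and erythrocyte markers overlapped between these groups as well.

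Uchl1 lies on chromosome 5 at chr5:66676091-66687234 on the plus strand (GRCm38, GENCODE M21), and 2 annotated transcripts held nearly all its reads. Uchl1-201 is the protein-coding transcript of 1177 bases and 9 exons. Uchl1-202, of 980 bases and 7 exons, is annotated as a retained-intron transcript. It begins 52 bases before exon 3, inside the second intron, and is otherwise identical over 928 bases. The stretches below show where the transcripts part, since nearly all reads that can tell them apart must reach bases before exon 3. Both run into the same 40 bases of exon 3, in lower case, and the capitals mark the bases that belong to one transcript only. For Uchl1-201 these are the coding part of exon 1, from its start codon, and exon 2, and for Uchl1-202 the end of intron 2.
Uchl1-201: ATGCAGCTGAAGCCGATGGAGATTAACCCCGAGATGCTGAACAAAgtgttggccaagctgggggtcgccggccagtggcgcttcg
Uchl1-202: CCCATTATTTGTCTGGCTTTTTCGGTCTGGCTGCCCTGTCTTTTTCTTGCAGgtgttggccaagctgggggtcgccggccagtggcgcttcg
The sequences were read from the GRCm38.p6 genome. The Uchl1-202 stretch is contiguous (chr5:66676892-66676983), and the Uchl1-201 stretch is spliced from exon 1, which ends at 66676322, exon 2, from 66676436 to 66676447, and exon 3, which starts at 66676944.

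Uchl1-202 held 51.3% of the estimated counts of the gene and Uchl1-201 47.9%. Uchl1-202 had 16.6, 18.2 and 9.73 CPM in 2X cytokine and 46.7, 24.3 and 32.1 CPM in 2X PBS. The groups did not overlap, and an exact two-sided permutation test gave p = 0.1, the smallest that 3 against 3 allows. Uchl1-201 had 14.1, 16.1 and 18.5 CPM in 2X cytokine and 16.0, 29.9 and 17.0 CPM in 2X PBS, with overlap (exact two-sided permutation p = 0.5). In the 1X groups Uchl1-202 averaged 20.1 CPM in 1X cytokine and 24.5 CPM in 1X PBS (n = 3 each, exact two-sided permutation p = 0.7), and Uchl1-201 25.0 CPM in 1X cytokine and 22.0 CPM in 1X PBS (exact p = 1.0). By library, Uchl1-202 had 29.2, 15.6 and 15.6 CPM under the label 1X cytokine and 9.49, 37.7 and 26.3 CPM under the label 1X PBS. Uchl1-201 had 38.9, 18.2 and 17.9 CPM under the label 1X cytokine and 19.7, 23.0 and 23.3 CPM under the label 1X PBS. Replicate 1 of both labels stands apart, as described below, so these 1X means and p-values are values by label. Between the 2X groups only the transcript annotated as retained intron was separated, and the difference between both transcripts was not tested. The division rests on the few bases that set the transcripts apart. How such divisions can vary is seen in Stx1a, where Stx1a-204 had 21, 0 and 13 counts and Stx1a-205 0, 20 and 0 counts in the 3 libraries of 2X cytokine. Uchl1os, which lies antisense to the start of Uchl1 and shares 295 exonic bases, had 0 counts in every library.

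**Figure D4:**
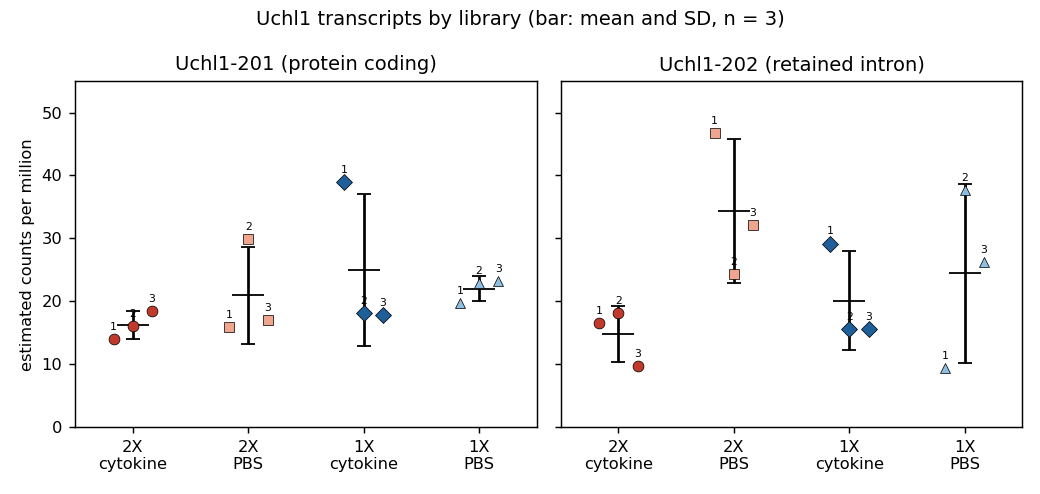
CPM of the protein-coding transcript Uchl1-201 and the retained-intron transcript Uchl1-202 in each library, with bars at the mean and SD of 3 libraries. Uchl1-202 lies between 9.73 and 18.2 CPM in 2X cytokine and between 24.3 and 46.7 CPM in 2X PBS, while Uchl1-201 overlaps.

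Some of these genes hold another gene within their span. Syn1 (chrX:20860511-20921004) contains Timp1, an inhibitor of matrix metalloproteinases, on the opposite strand and without shared exonic bases. Timp1 had 17.5, 6.03 and 11.1 CPM in 2X cytokine and 192, 180 and 158 CPM in 2X PBS, and it fell by 3.93 ± 0.40 on the log2 scale (standard error; edgeR adjusted p = 0.00542). Syn1, its host, had values above those of 2X PBS in every 2X cytokine library and was not called. Syn2 contains Timp4, a related inhibitor, with 90 shared exonic bases. Timp4 had 1450, 1140 and 1170 CPM in 2X cytokine and 661, 800 and 819 CPM in 2X PBS, and Syn2 had 21.1, 15.8 and 20.1 CPM in 2X cytokine and 15.2, 22.4 and 16.0 CPM in 2X PBS. Timp4 rose in the fit of 6 libraries (edgeR adjusted p = 0.00237) and was not called in the fit of 12 (edgeR adjusted p = 0.72). Reads in the shared bases cannot be told apart without strand.

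1X cytokine libraries were set against 1X PBS libraries for the effect of 1 cytokine injection. Among the 20 genes 0 were called, where 0.0% of all genes were, and 0 had an unadjusted p under 0.05, against 5.4% of all genes. DESeq2 called 0 as well. The median log2 fold change was -0.02, against -0.01 over all genes, with 8 genes above 0 and 12 below. Only Gad2 did not overlap, with 6.14, 4.61 and 3.85 CPM in 1X cytokine and 6.85, 6.37 and 9.05 CPM in 1X PBS. This is 1 gene (5.0%) lower in every 1X cytokine library, where 3.29% of all genes were, and 0 were higher in every one, where 2.89% were. The log2 fold change of Gad2 was -0.58 with a standard error of 0.33 (edgeR adjusted p = 0.866). 10 of the 20 genes had the same sign here as between 2X cytokine and 2X PBS.

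**Figure D5:**
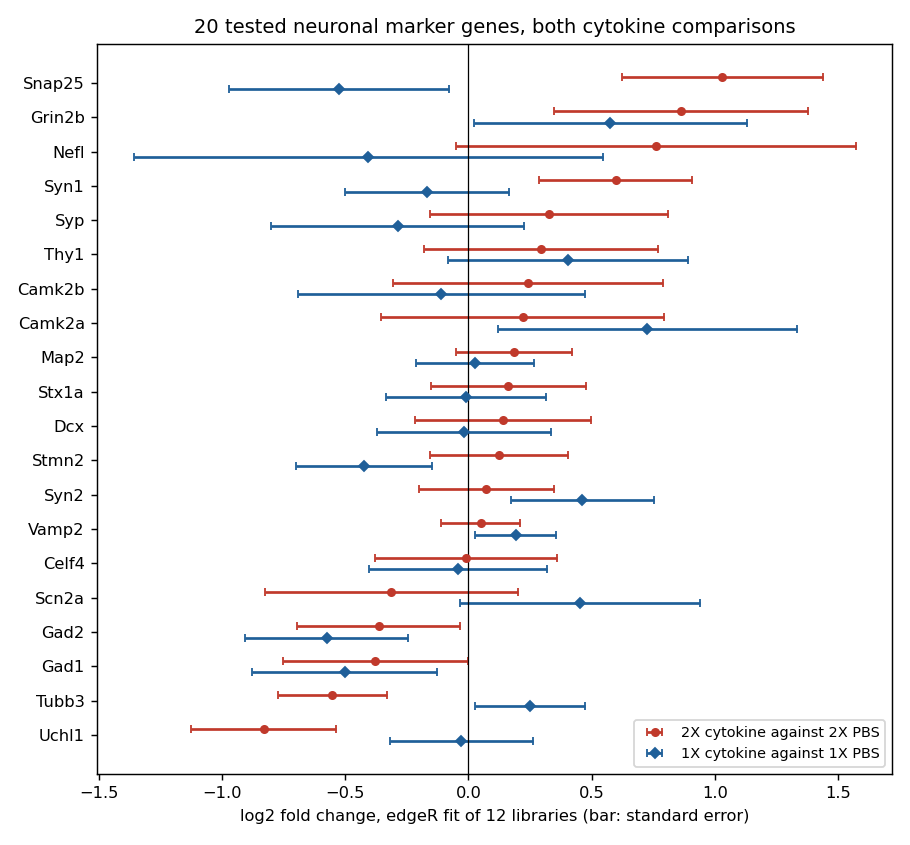
Log2 fold change with its standard error for the 20 tested genes in both cytokine comparisons, from the edgeR fit of 12 libraries, ordered by the 2X comparison. Values run from -0.83 for Uchl1 to 1.03 for Snap25 in the 2X comparison and from -0.58 for Gad2 to 0.73 for Camk2a in the 1X comparison, and none passed the threshold.

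Within the libraries labelled 1X, replicate 1 stood apart from the others of its label. Monocyte and macrophage markers summed to 378, 40.4 and 37.2 TPM under the label 1X cytokine and 40.1, 1570 and 1210 TPM under the label 1X PBS. Some neuronal marker genes were divided by library as well. Uchl1 had 69.6, 33.8 and 34.1 CPM under the label 1X cytokine and 30.8, 61.0 and 50.1 CPM under the label 1X PBS. Grin2b had 3.69, 14.6 and 14.8 CPM in 1X cytokine and 13.3, 3.88 and 4.87 CPM in 1X PBS. For both genes replicate 1 of each label lay nearer to replicates 2 and 3 of the other label than to those of its own. The same held for Map2, with 59.5, 105 and 90.1 CPM in 1X cytokine and 116, 69.0 and 65.2 CPM in 1X PBS. It also held for Vamp2 and Dcx, and less clearly for Syn2 and Stmn2, while Tubb3, Syn1 and Snap25 did not divide the libraries in that way. Timp1 had 143 CPM in 1X PBS replicate 1, near the 124 and 129 CPM of the others of its label, and 135 CPM in 1X cytokine replicate 1, against 83.3 and 45.6 CPM. Whether these libraries carry the right label cannot be settled from these values, so every value of the 1X groups, and of the difference between both responses, is a value by label.

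Without replicate 1 of both 1X groups, 5 of 20 genes (25.0%) were called between 1X cytokine and 1X PBS by edgeR, where 23.5% of all genes were, so the share was near that of all genes. These libraries were left out with their values known, and all 5 genes called are, some less clearly, among those by which they stand apart. The sizes below are therefore a description, and no test is given for single genes of this comparison. The log2 fold change was 1.75 for Grin2b, 0.98 for Syn2 and 0.57 for Map2, with standard errors of 0.35, 0.28 and 0.13. It was -0.69 for Uchl1 and -0.80 for Stmn2, with standard errors of 0.16 and 0.27. Syn2 had 18.0 and 17.0 CPM in the 1X cytokine libraries kept and 10.5 and 7.65 CPM in the 1X PBS libraries kept, and Stmn2 had 19.2 and 12.1 CPM in 1X cytokine and 28.5 and 28.1 CPM in 1X PBS. These values rest on 2 libraries a group. Timp4, which shares exonic bases with Syn2, had 1080 and 984 CPM in the 1X cytokine libraries kept and 363 and 330 CPM in the 1X PBS libraries kept. Its part in the values of Syn2 was not tested. Snap25 and Tubb3 had log2 fold changes of 0.12 and 0.02 there, with standard errors of 0.48 and 0.22, and were not called. Without the same libraries Uchl1 passed between 2X cytokine and 2X PBS, at -0.81 with a standard error of 0.13 (adjusted p = 0.00175), where 7.02% of all genes were called.

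The difference between both cytokine responses was tested in the fit of 12 libraries. It was called for 0 of the 20 genes, where 0.0% of all genes were, and DESeq2 called 0. 2 genes (10.0%) had an unadjusted p under 0.05, against 5.2% of all genes. For Snap25 the difference was 1.55 on the log2 scale with a standard error of 0.60 (edgeR adjusted p = 0.908), and for Tubb3 it was -0.80 with a standard error of 0.32 (edgeR adjusted p = 0.908). For Uchl1 it was -0.80 with a standard error of 0.41 (edgeR adjusted p = 0.956). Without replicate 1 of both 1X groups the difference was -0.13 ± 0.21 for Uchl1, 0.93 ± 0.58 for Snap25 and -0.55 ± 0.29 for Tubb3 (standard errors), and edgeR again called 0 of the 20.

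Between 2X cytokine and 1X cytokine, which share the cytokine and differ in the number of injections, 0 of 20 genes were called, where 0.0276% of all genes were. DESeq2 called 0, and the unadjusted p was under 0.05 for 3 (15.0%), against 7.0% of all genes. Snap25 had 15.4, 9.42 and 9.0 CPM in 2X cytokine and 3.69, 4.61 and 4.4 CPM in 1X cytokine, without overlap, and its log2 fold change was 1.42 with a standard error of 0.43 (edgeR adjusted p = 0.689). Tubb3 had 62.5, 82.5 and 75.9 CPM in 2X cytokine and 133, 118 and 89.6 CPM in 1X cytokine, a log2 fold change of -0.63 ± 0.22 (standard error) (edgeR adjusted p = 0.689). Syn1 was the third separated gene, with 4.42, 3.46 and 9.34 CPM in 1X cytokine. 2 genes (10.0%) were higher in every 2X cytokine library, where 5.71% of all genes were, and 1 (5.0%) was lower, where 6.76% were.

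Between 2X PBS and 1X PBS 0 of 20 genes were called, where 0.0% of all genes were, the unadjusted p was under 0.05 for 1 (5.0%, against 6.31% of all genes), no DESeq2 call was made (0 of 20), and in 20 of 20 genes the libraries of both groups overlapped. Over all genes 5.4% were higher and 6.05% lower in every 2X PBS library. The gene with the low p was Syn2, with 15.2, 22.4 and 16.0 CPM in 2X PBS and 17.1, 10.5 and 7.65 CPM in 1X PBS. Its log2 fold change was 0.65 with a standard error of 0.28 (edgeR adjusted p = 0.776). Without 1X PBS replicate 1, its highest 1X PBS library, Syn2 was called, where 7.39% of all genes were. The log2 fold change was then 1.03 with a standard error of 0.25. That library was left out with its values known, so this size is a description and no test. Timp4, which shares exonic bases with Syn2, had 661, 800 and 819 CPM in 2X PBS and 1400, 363 and 330 CPM in 1X PBS. Its part in the values of Syn2 was not tested. Without replicate 1 of both 1X groups 3 genes (15.0%) passed, where 18.6% of all genes did. These were Syn2, Map2 and Grin2b, higher in 2X PBS by 1.04, 0.51 and 1.06 on the log2 scale. For all 3 genes 1X PBS replicate 1 was the highest library of its group, so these sizes are a description as well. Voom with quality weights called 3 over all 12 libraries, Syn2, Map2 and Stmn2, where 18.6% of all genes were called. The 2X cytokine, 2X PBS, 1X cytokine and 1X PBS libraries each enter more than one of these comparisons, so the comparisons are not independent.

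Some other neuronal transcripts reached or passed the levels of the most abundant genes described above, while others were too low to be tested. Of 48 further genes of neurons, 38 were tested and 0 were called between 2X cytokine and 2X PBS in the fit of 12 libraries, with a median log2 fold change of 0.08. Their sum was higher without overlap, at 528, 507 and 523 TPM in 2X cytokine and 452, 467 and 427 TPM in 2X PBS. The highest of the 48 was Gria1, an AMPA receptor subunit that some astrocytes also express, at a mean of 76.0 TPM. It had 466, 315 and 384 CPM in 2X cytokine and 202, 318 and 320 CPM in 2X PBS. Rtn1, a protein of the endoplasmic reticulum in neurons, averaged 60.0 TPM, and Rab3a, a GTPase of vesicles, 41.5 TPM.

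Of 22 genes that mark kinds of neurons, 5 were tested. Npy, a neuropeptide, averaged 323 TPM, Ppp1r1b, a phosphatase inhibitor of striatal neurons, 248 TPM, and Penk, an enkephalin precursor, 90.6 TPM. Sst, the somatostatin gene, had 0 counts in every library. Penk had 40.7, 43.7 and 31.2 CPM in 2X cytokine and 65.6, 64.1 and 78.8 CPM in 2X PBS and fell in the fit of 6 libraries (log2 fold change -0.85, edgeR adjusted p = 0.00282). Calb1, a calcium buffer, rose in it, with 32.5, 28.3 and 28.2 CPM in 2X cytokine and 15.2, 18.0 and 17.2 CPM in 2X PBS (log2 fold change 0.81, edgeR adjusted p = 0.00589). In the fit of 12 libraries 0 of the 5 were called. Some of these genes are also transcribed in astrocytes, and in these data their levels cannot be assigned to a cell.

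Genes of young migrating neurons, which are born beside the injected ventricles, were also counted. 12 such genes summed to between 597 and 682 TPM in 2X cytokine and between 508 and 582 TPM in 2X PBS, without overlap, and 0 of 11 tested were called in either fit, with a median log2 fold change of -0.12 over 12 libraries. The sum was led by Tubb2b at a mean of 201 TPM and Cd24a at 173 TPM, both of which other cells transcribe, while Dlx1, a transcription factor of interneuron precursors, averaged 21.2 TPM. Rest, the repressor that silences neuronal genes outside neurons, averaged 3.98 TPM and lay between 20.4 and 22.6 CPM in 2X cytokine and between 19.9 and 22.8 CPM in 2X PBS. Its log2 fold change was -0.02 with a standard error of 0.18. Of its partners Rcor1, Sin3a, Kdm1a and Ehmt2 were tested, and 0 were called in either fit. With Rest and Rcor2 these genes, 6 in all, summed to between 82.8 and 84.3 TPM in 2X cytokine. In 2X PBS they summed to between 73.9 and 76.7 TPM, without overlap. Of the 5 tested, 3 had a log2 fold change above 0 and 2 below in the fit of 12 libraries.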

How the data were processed

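RNA-seq of 12 libraries was used. The 19 ATAC-seq samples were not analysed here, and 10 of them have labels that contradict each other. Per the labels' protocols, libraries were made by SMART-Seq2 and reads were assigned to the GRCm38 transcriptome with kallisto 0.46.1. The deposited estimated counts per transcript carry no scaling between libraries, while the deposited TPM values are scaled by length and to a fixed sum. Lengths in bases are deposited alongside as other values.

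Estimated counts were summed per gene (55401 genes) and rounded. edgeR 4.0.16 in R 4.3.3 was run with filterByExpr, TMM scaling, a coefficient per group and the quasi-likelihood F test, with Benjamini-Hochberg adjustment over 14490 genes and a threshold of 0.05. CPM use TMM-scaled totals. Standard errors are the log2 fold change over the root of F. The procedure was tested on simulated counts. Positions are from GENCODE M21, whose versioned identifier matched for 28 of 30 genes. A floor of 3 counts, like depth, covers counting error only, since PCR copies were not separated. Since the source of each library is not stated, p-values reflect library spread only, possibly technical.

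Every gene is given by its level. Fold changes are given for genes past the threshold in the fit of 12 libraries or of the 6 libraries of a comparison, and of the other lists for up to 4 genes with the highest mean TPM or past the threshold. Genes whose groups do not overlap, with an unadjusted p under 0.05 or used as contrast (Vamp2, Map2, Gad1), the transcripts of Gad1, Grin2b and Stx1a, and the fit of 6 libraries with each left out were added after values were seen. The genes and lists were chosen with earlier results of these data known. A result on 1 gene of the other lists is not reported here. Replicate numbers come from the labels' titles. The alternatives covered DESeq2 1.42.0, RLE factors, a minimum of 1 count in place of the filter, a mean CPM of at least 10, limma-trend (limma 3.58.1) on log2(TPM + 1) and log2(TPM + 0.1), voom with quality weights, protein-coding genes, the replicate block, the 6 libraries of a comparison, and leaving out libraries.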

Additional observations from a re-analysis of the deposited data

How the results depend on the processing

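With 0 of the 20 genes called in every comparison of the fit of 12 libraries, the alternatives that changed a count were few. Between 2X cytokine and 2X PBS, Uchl1 was the 1 gene called with no filter beyond 1 count (adjusted p = 0.0367, where 1.37% of all genes were called), with voom quality weights (adjusted p = 0.0322, 3.13%), in the fit of these 6 libraries and without replicate 1 of both 1X groups. All of these settings compare the same 2X libraries, so Uchl1 was not called in separate data. The log2 fold change of Uchl1 lay between -0.90 and -0.73 over 29 alternatives, with adjusted p between 0.00175 and 0.785. Without replicate 1 of both 1X groups 5 genes were called between 1X cytokine and 1X PBS and 3 between 2X PBS and 1X PBS. Voom called 3 between 2X PBS and 1X PBS (Syn2, Map2 and Stmn2, where 18.6% of all genes were called). In the fit over all groups, leaving out 1 library at a time gave between 0 and 1 genes between 2X PBS and 1X PBS, the 1 being Syn2 without 1X PBS replicate 1, and 0 to 0 in the other comparisons. DESeq2 called 0 genes of the 20 in all 5 comparisons.

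Same-numbered libraries did not deviate together (correlations of -0.619 to 0.162), so the replicate numbers were not taken as pairs. With the replicate block 0 of the 20 genes were called in each comparison, with medians of 0.157, -0.0693, 0.0886, 0.139 and 0.167. The median for the difference of responses changed sign under limma-trend and voom, to between -0.12 and -0.06, and without replicate 1 of both 1X groups, to -0.03. Counts over all genes depended far more on the setting: between 2X cytokine and 2X PBS edgeR called 5, DESeq2 114 and the fit of 6 libraries 1065. The cause of these changes between settings was not tested. Depth limits what can be said of the 10 untested genes.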
